A study of Saccharomyces cerevisiae with 24 samples.

Results

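Lea1 and Prp11 are both proteins of the U2 snRNP, the splicing particle whose RNA pairs with the branch point of an intron, and their chromatin profiles from budding yeast are set side by side here gene by gene. The data are the 2 columns of log2 ratios for Lea1-13myc and Prp11-13myc, out of 24 columns of chromatin immunoprecipitation followed by hybridisation to arrays of spotted open reading frames (ChIP-chip). In both strains the protein carried a C-terminal myc tag at its own locus, and cells grew vegetatively in rich medium to an optical density of 0.6. Immunoprecipitated DNA was hybridised against DNA of the whole-cell extract. Each column combines 3 biological replicates into 1 value per gene, so there is no spread between replicates, no p-value and no test, and every count and median below is a description of single columns. Beside the pair, 10 columns of other factors are used, among them Prp40, BBP, Mud2, Prp5 and RNA polymerase II, and 2 further Lea1-13myc columns, from SUB2 wild-type cells and from the sub2-85 mutant. Those 2 cultures grew in SC-HIS to the same density and were then held at 37 °C for 30 minutes. By their titles the other factors differ in tag. Mud2, Prp2 and Brr2 carried 13myc, while Prp40, Prp5, Prp19 and Spt5 carried a myc tag of fewer copies. BBP and Sub2 carried an HA tag, and the RNA polymerase II title names no tag. A positive value in all likelihood means more immunoprecipitate than extract, though the sources used here do not state the direction.

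The spliceosome assembles on an intron while RNA polymerase II is still copying the gene, and immunoprecipitation of a splicing factor therefore recovers DNA of the gene being transcribed. The U1 snRNP, of which Prp40 is a part, meets the upstream splice site first, and BBP with Mud2 marks the branch point. The ATPase Prp5 then helps the U2 snRNP take that place. Within the U2 snRNP, Lea1 and its partner Msl1 bind the U2 RNA directly, while Prp11 forms the SF3a subcomplex with Prp9 and Prp21, which works beside the SF3b proteins near the branch point.

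Of 6284 probes, 5637 were nuclear protein-coding genes with a value in both columns. Among them 231 have an intron, 91 of which code for ribosomal proteins, and 5377 have none. The remaining 29 belong to no class, since their span or splicing leaves it unsettled. Deposited values stop at a ratio of 100 in either direction, a limit reached by 1 gene for Lea1, at the upper end, and by 3 genes for Prp11, at the lower end. Otherwise Lea1 values began at -2.32 and Prp11 values ended at 2.94 on the log2 scale. Values were spread more widely for Lea1 than for Prp11, with a robust SD over intronless genes of 0.25 and 0.16 (log2). Each column was therefore centred on the median of its intronless genes and divided by this robust SD. The resulting scaled value states how many robust SDs a gene lies above typical intronless genes, and a gene is called held where it reaches 3. On the log2 scale this threshold lies at 0.70 for Lea1 and 0.46 for Prp11. Deposited Lea1 values take just 279 levels over these genes against 3815 for Prp11, and 99.9% of the Lea1 ratios are whole hundredths within a tolerance of 0.02 hundredths. The Mud2 column shares this trait, with 524 levels and 99.7% of its ratios at whole hundredths.

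Both proteins were found on intron genes, and above all on those of the ribosome. Lea1 held 139 of 231 intron genes and Prp11 held 100, while 4.97% and 3.49% of all genes used were held by these proteins. Both held 94 intron genes, where 2.32% of all genes were held by both. These 94 are 94.0% of the intron genes held by Prp11 and 67.6% of those held by Lea1. Thus the Prp11 set lay almost wholly inside the Lea1 set, and 45 intron genes were held by Lea1 and not by Prp11 (2.64% of all genes), against 6 the other way (1.17%). Among intronless genes Lea1 held 136 and Prp11 95, with 35 in common.

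**Figure D1:**
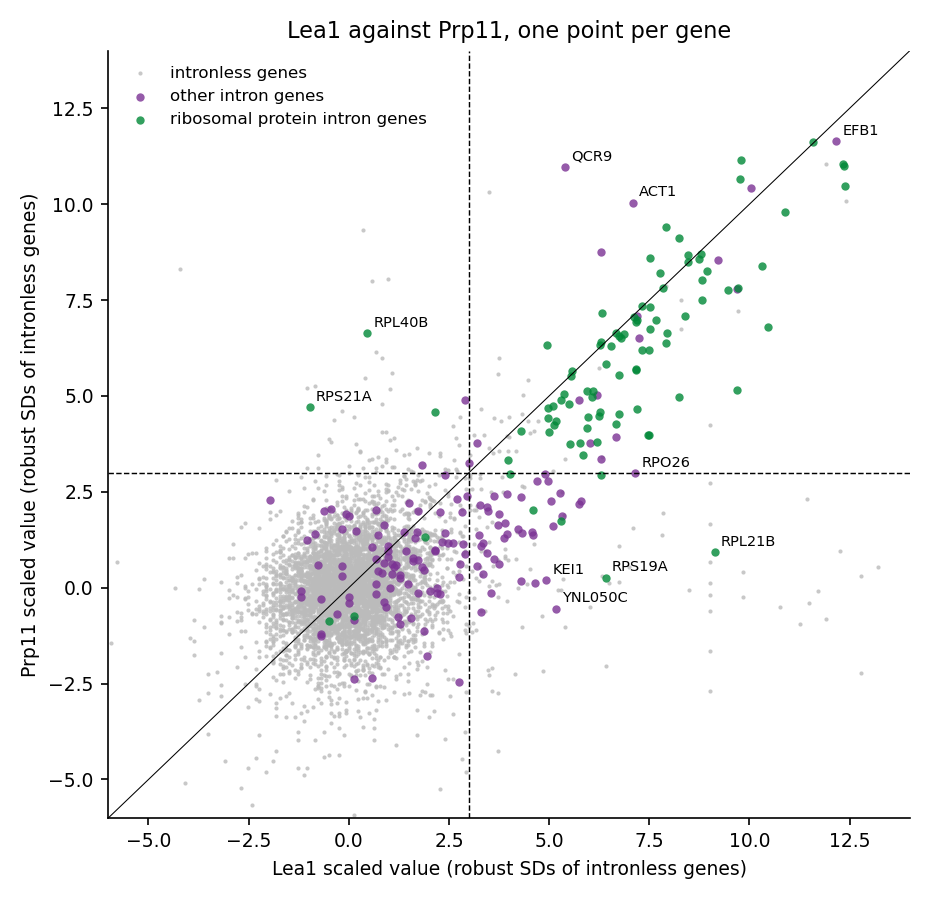
Scaled Lea1 value (horizontal axis) against scaled Prp11 value (vertical axis), 1 point per gene, with dashed lines at the threshold of 3 and a solid line where both are equal. The 29 unclassed genes are not drawn, and 32 intronless or unclassed genes have values outside the frame. Ribosomal protein intron genes lie along the line of equal values, 73 of 91 on the Lea1 side and with RPL21B and RPL40B far from it, many other intron genes pass the Lea1 threshold and stay under that of Prp11, and intronless genes form a cloud around zero with stray points along either axis.

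The columns ran closely together over intron genes. Spearman's rho between the columns was 0.82 and Pearson's r 0.83 over 231 intron genes, against a rho of 0.21 over 5377 intronless genes. It was 0.76 within the ribosomal protein intron genes and 0.56 within the other 140. These are correlations across genes, which are not independent replicates and share the same probes and transcription levels. The Prp40 and Prp5 columns lay as near to Lea1 as the Prp11 column did. For Lea1 rho over intron genes was 0.83 with Prp40, 0.84 with Prp5 and 0.75 with BBP. For Prp11 the values were 0.82 with Prp40, 0.82 with Prp5 and 0.77 with BBP. Spt5 gave 0.75 for Lea1 and 0.77 for Prp11, the same as BBP when rounded. For Lea1 and Prp11 in turn, Brr2 gave 0.71 and 0.66, Prp19 0.68 and 0.67 and Prp2 0.59 and 0.68. Lower values came with Mud2 (0.56 for Lea1, 0.61 for Prp11), and Sub2, a helicase with roles in splicing and export, gave 0.00 for Lea1 and 0.05 for Prp11.

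Both columns also followed transcription. With RNA polymerase II, rho over intron genes was 0.70 for Lea1 and 0.73 for Prp11. After the rank of the polymerase was removed from both columns, rho between Lea1 and Prp11 was 0.62. Divided into 3 equal bins of 77 intron genes by polymerase value, the columns had a rho of 0.36 in the lowest bin, 0.83 in the middle bin and 0.73 in the highest. In the lowest bin Lea1 held 18 genes and Prp11 held 2. Lea1 held 51 genes in the middle bin and 70 in the highest, where Prp11 held 34 and 64. From lowest to highest, ribosomal protein genes made up 5, 30 and 56 of the bins. Of the genes held, they were 3, 28 and 54 for Lea1 and 2, 27 and 53 for Prp11. The part of gene class in these values was not tested.

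Among intron genes, those of ribosomal proteins made up most of the held set of both proteins. Lea1 held 85 of 91 and Prp11 held 82, and 79 were held by both. Their median log2 ratio was 1.64 for Lea1 and 0.92 for Prp11, which become 6.75 and 5.84 when scaled. Genes of the large subunit had scaled medians of 6.99 for Lea1 and 6.26 for Prp11, and those of the small subunit 6.68 and 5.70. The highest intron genes of the Lea1 column were RPS9A at a scaled 12.4, RPS4B at 12.4, RPS4A at 12.3 and EFB1 at 12.2. Those of the Prp11 column were EFB1 at 11.6, RPL2A at 11.6, RPL19B at 11.2, RPS4A at 11.0 and RPS4B at 11.0. EFB1, which codes for a translation elongation factor and hosts a snoRNA in its intron, had log2 ratios of 3.01 for Lea1 and 1.85 for Prp11. RPS4A and RPS4B are near-identical copies, and as with other duplicated ribosomal protein genes a spotted probe may read both, so values of single copies are uncertain.

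Only 3 ribosomal protein intron genes were held by neither protein. RPS30A had -0.50 for Lea1 and -0.88 for Prp11, RPL43B 0.12 and -0.73, and RPL31B 1.91 and 1.33, all scaled.

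Intron genes outside the ribosome set the proteins apart. Lea1 held 54 of these 140 genes and Prp11 held 18, with 15 held by both. Their median log2 ratio was 0.52 for Lea1 and 0.16 for Prp11, or 2.28 and 1.17 when scaled. Actin and tubulin cytoskeleton genes had scaled medians of 3.61 for Lea1 and 2.10 for Prp11 over 14 genes, of which Lea1 held 9 and Prp11 held 3. In that group PFY1, coding for the actin-binding protein profilin, had log2 ratios of 1.28 for Lea1 and 0.28 for Prp11, and the alpha-tubulin gene TUB1 had 1.39 and 0.33. Vesicle traffic genes followed with medians of 2.82 and 1.52 over 18 genes, 8 held by Lea1 and 3 by Prp11. There the phosphatidylinositol transfer gene SEC14 was held by both, at a scaled 6.19 for Lea1 and 5.03 for Prp11, while the coatomer gene SEC27 had 3.88 and 1.29.

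Among 17 intron genes of RNA processing and export, Lea1 held 4 and Prp11 2. YRA1, an mRNA export gene whose own splicing is autoregulated, stood at 7.19 for Lea1 and 7.09 for Prp11. RPO26, coding for a subunit shared by the nuclear RNA polymerases, stood at 7.14 and 2.98. The 12 mitochondrial intron genes had medians of 1.59 for Lea1 and 0.38 for Prp11, yet QCR9, a subunit gene of respiratory complex III, had 5.39 and 10.97. The ubiquitin pathway was the single intron group here whose Lea1 median lay below that of Prp11, with 1.87 and 2.06 over 13 genes, though the median of its gene-by-gene differences was 1.37. This group includes RPL40A and RPL40B, which are also counted among the ribosomal protein intron genes. They gave its highest values, 7.18 for Lea1 (RPL40A) and 6.65 for Prp11 (RPL40B). The E2 enzyme gene UBC4 was held by both at 5.75 for Lea1 and 4.90 for Prp11. Meiotic intron genes, which are repressed in vegetative growth, had medians of 0.12 for Lea1 and -0.24 for Prp11, and of 13 Lea1 held only REC102 and Prp11 none.

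**Figure D2:**
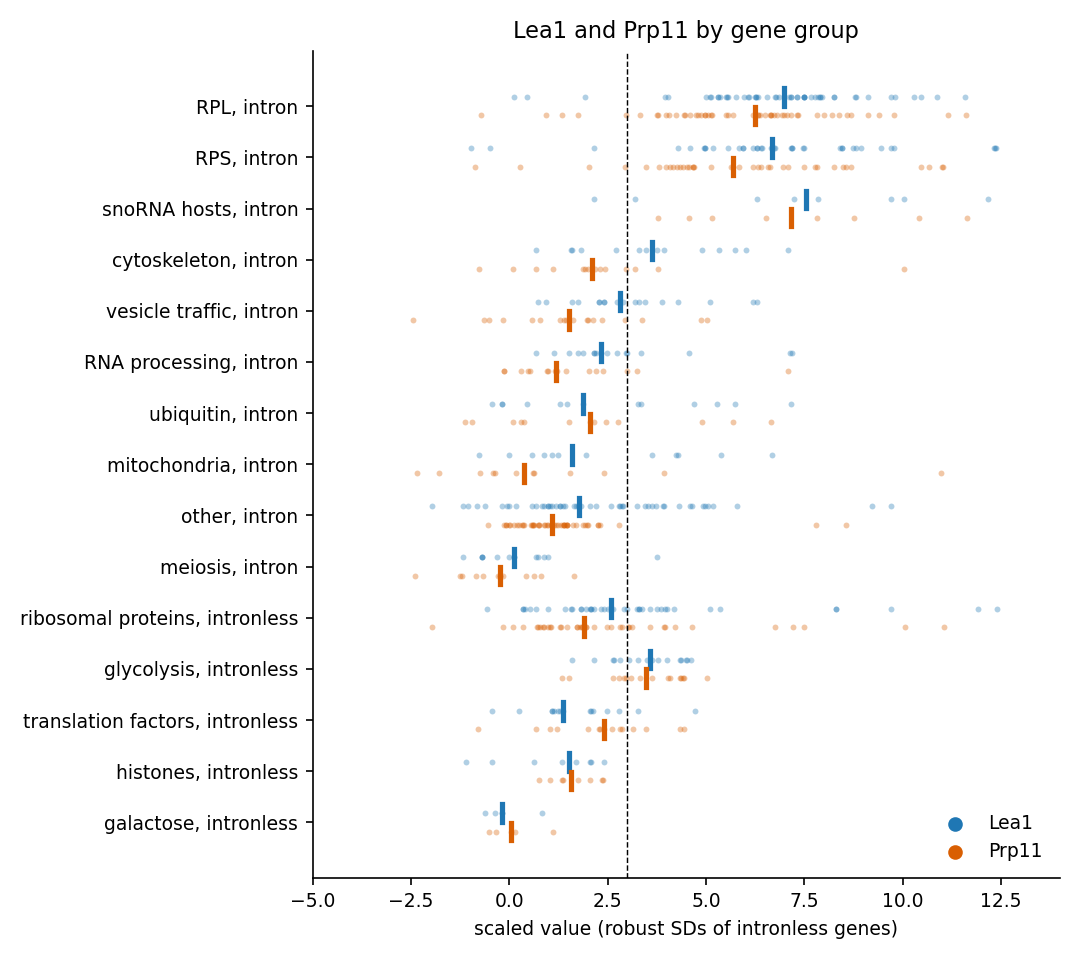
Scaled values of Lea1 (blue, upper row of each group) and Prp11 (orange, lower row) by gene group, with 1 point per gene, a bar at the group median and a dashed line at the threshold of 3. Medians of ribosomal protein intron genes and snoRNA hosts lie far above the threshold for both proteins, though single genes of these groups lie below it. Cytoskeleton and vesicle traffic genes have higher medians for Lea1 than for Prp11.

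The difference Lea1 minus Prp11 in scaled values was above zero for 180 of 231 intron genes (77.9%), where 52.4% of all genes were above zero. Its median was 0.95 over intron genes, 0.80 over ribosomal protein intron genes, 1.12 over other intron genes and 0.08 over all genes. How the columns are put on a common scale decides the sign for the ribosomal protein group. Quantile normalisation gave that group a median difference of -0.14 (log2), with 27 of 91 above zero. When each column was divided by its own median over this group, 45 of 91 were above zero. Other intron genes kept a positive median under every scaling tried, with 98 to 114 of 140 above zero. Over all intron genes the share above zero was 54.1% after quantile normalisation, near the 49.0% of all genes. It was 87.0% for log2 ratios as deposited, against 48.1% of all genes. After division by the ribosomal protein median it was 63.2%, against 51.5%.

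The same shares were counted in the columns of other factors. Held genes made up 6.14% of all genes for Prp40, 2.89% for BBP, 5.56% for Mud2 and 4.75% for Prp5. They made up 2.02% for Prp2, 4.31% for Brr2, 2.63% for Prp19, 0.461% for Sub2, 4.26% for Spt5 and 3.97% for RNA polymerase II. On ribosomal protein intron genes Lea1 held 93.4%, Prp11 90.1%, Prp5 92.3%, BBP 90.1%, Mud2 83.5% and Prp40 97.8%. On other intron genes Lea1 held 38.6% and Prp11 12.9%, against 53.6% for Prp40, 19.3% for Prp5, 18.6% for Mud2 and 11.4% for BBP. In order of this share the columns ran Prp40, Lea1, Prp5, Mud2, Prp11 and BBP, with no spread to say which neighbours differ. Lea1 kept the larger share under each threshold tried, but it was 20.7% for Lea1 and 10.7% for Prp11 above the 99th percentile of intronless genes. Past recruitment, the ATPases Prp2 and Brr2 and the activation factor Prp19 held 18.7%, 23.1% and 50.5% of ribosomal protein intron genes and 5%, 6.43% and 10.7% of the others, while Sub2 held none of either. Columns differ in their tag, in their noise and in the number of pooled replicates, and the part these play was not tested. The number of pooled replicates was 5 for Prp40, 4 each for BBP and Prp5 and 3 for Mud2. The labels give no growth medium for BBP.

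**Figure D3:**
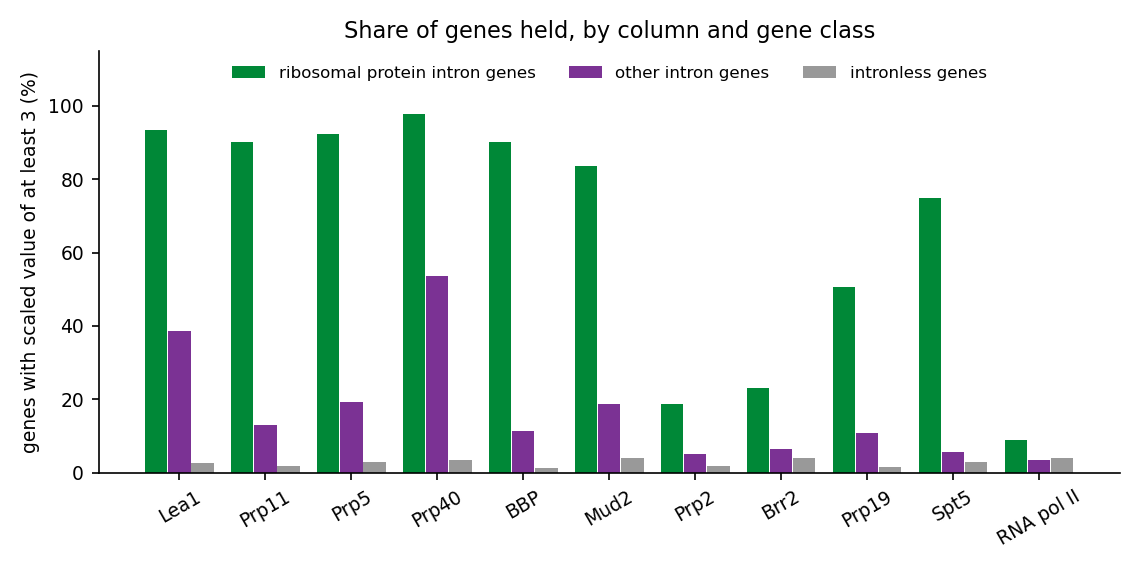
Percentage of genes with a scaled value of at least 3 in each of 11 columns (Sub2, at 0, is not drawn), for ribosomal protein intron genes (green), other intron genes (purple) and intronless genes (grey). Lea1 and Prp11 reach similar green bars, 93.4% and 90.1%, and different purple bars, 38.6% and 12.9%.

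Genes held by 1 of the 2 proteins alone were taken as those at 3 or more for that protein and under 1 for the other. By this rule Lea1 alone held 13 intron genes (5.63%, against 1.44% of all genes) and Prp11 alone held 2 (0.87%, against 0.639% of all genes). At the head of the Lea1 set were 2 ribosomal protein genes. RPL21B had log2 ratios of 2.24 for Lea1 and 0.12 for Prp11, or 9.13 and 0.92 when scaled. RPS19A had 1.56 and 0.02, or 6.41 and 0.27. The near-identical partner of each was held by both proteins, with RPL21A at a scaled 7.51 for Lea1 and 6.74 for Prp11 and RPS19B at 6.73 and 4.52.

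The other 11 genes held by Lea1 alone were YNL050C, KEI1, PHO85, COX5B, SNC1, TDA5, REC102, UBC13, NCB2, ERV41 and RFA2. REC102, at 3.76 for Lea1, varied widely between the other columns, from -7.89 for Prp2 and -7.71 for Prp19 to 17.7 for Brr2. PHO85 codes for a cyclin-dependent kinase and had 4.64 for Lea1 and 0.12 for Prp11. KEI1, needed for sphingolipid synthesis in the Golgi, had 4.93 and 0.20. COX5B, coding for the hypoxic isoform of a cytochrome c oxidase subunit, had 4.29 and 0.17. The v-SNARE gene SNC1 had 3.31 and -0.64, and RFA2, of the single-stranded DNA binding complex RPA, had 3.44 and 0.91.

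Prp11 alone held RPL40B and RPS21A. RPL40B, which codes for a ubiquitin fusion of a large-subunit protein, had log2 ratios of 0.06 for Lea1 and 1.05 for Prp11, or 0.46 and 6.65 when scaled. RPS21A had -0.30 and 0.73, or -0.97 and 4.71. Their partners RPL40A and RPS21B were held by both, at 7.18 and 4.98 for Lea1 and at 5.69 and 4.42 for Prp11. A scaled 3.17 for RPS21A and 3.44 for RPL40B was found in a second Lea1-13myc column, from the SUB2 wild-type cells at 37 °C, so the low Lea1 values of the rich-medium column were not seen there. That column held 2.18% of all genes and was not used to choose them.

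The 37 °C Lea1 column and the Prp40 column also served to describe the larger sets. Of 94 intron genes held by Lea1 and Prp11, Lea1 at 37 °C held 63, with a median scaled value of 3.84. Of the 45 held by Lea1 and not by Prp11 it held 7, with a median of 0.45. Of the 13 held by Lea1 alone it held RPL21B only, at 4.22, and of the 86 held by neither protein it held 1. By class, this column held 72.5% of ribosomal protein intron genes and 6.43% of other intron genes. Ribosomal protein genes made up 79 of the 94 and 6 of the 45, and the part of gene class was not tested. Prp40, which was not used to choose them either, held all 94, then 36 of the 45 and 9 of the 13, with medians of 9.71, 4.61 and 3.78. Its column held 6.14% of all genes, 97.8% of ribosomal protein intron genes and 53.6% of other intron genes. Of the 86 intron genes held by neither Lea1 nor Prp11 it held 28 (32.6%). The polymerase medians of the 94, the 45 and the 13 were 2.02, 0.65 and 0.04, so polymerase values were lower where Lea1 alone passed the threshold. In another Lea1 column, from the sub2-85 mutant under the same 37 °C treatment, 1 of the 94 and none of the 45 were held, where 1.05% of all genes were. Medium, temperature and strain differ between the Lea1 columns, and their part was not tested.

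**Figure D4:**
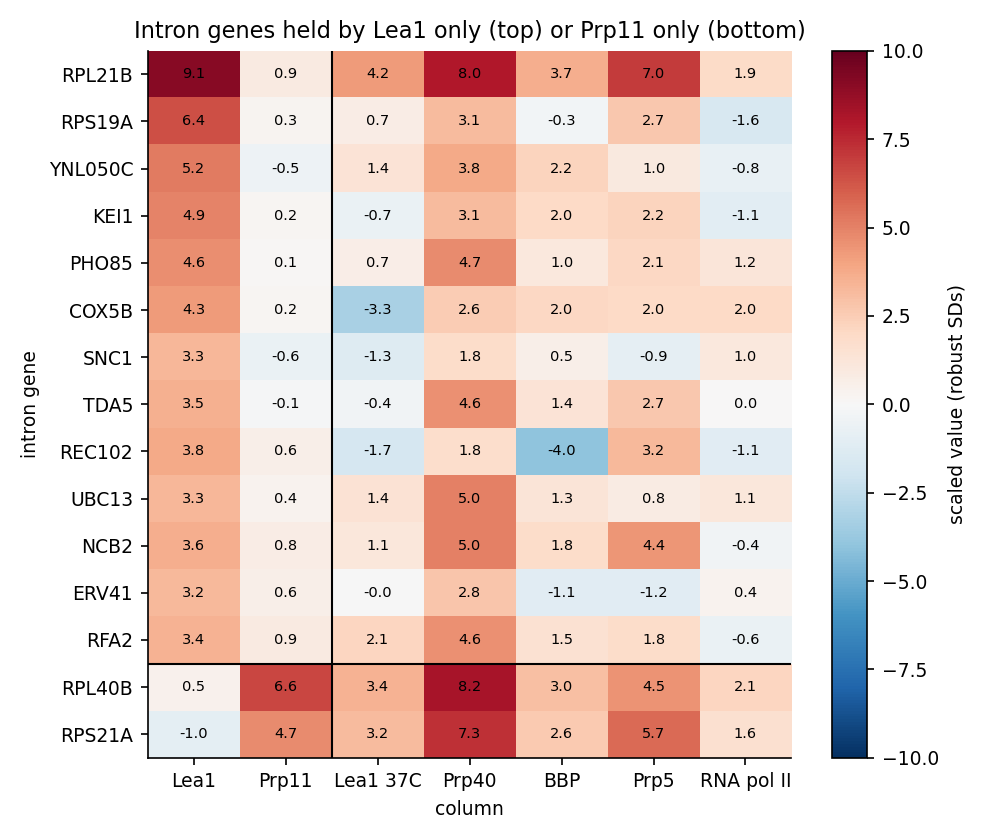
Scaled values of the 13 intron genes held by Lea1 alone (above the line) and the 2 held by Prp11 alone (below it) in 7 columns, with colour and printed number giving the value in robust SDs. Prp40 is at 3 or more for 9 of the 13 and both of the 2, and Lea1 at 37 °C is at 3 or more for RPL21B, RPL40B and RPS21A.

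At the opposite side of the comparison, held intron genes with the lowest Lea1 minus Prp11 values after these 2 were QCR9 at -5.58, ACT1 at -2.95, ASC1 at -2.47, RPS22B at -2.41 and SFT1 at -1.99 (scaled). ACT1, the actin gene, had log2 ratios of 1.73 for Lea1 and 1.59 for Prp11, so its order holds after scaling and not for log2 ratios as deposited, and the same applies to ASC1 at 1.53 and 1.39. Hosts of intron-encoded snoRNAs, among them ASC1, RPS22B, TEF4 and EFB1, had scaled medians of 7.55 for Lea1 and 7.17 for Prp11 over 8 genes. Lea1 held 7 of them and Prp11 all 8. The exception was RPS22B, at 2.16 for Lea1 and 4.57 for Prp11.

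At the threshold itself, NOG2 and ERV41 lay just inside for Lea1 at 3.21 each, and DBP2 and NSP1 just outside at 2.997 and 2.96. For Prp11 COF1 and DBP2 lay just inside at 3.20 and 3.24, and RPO26 and ARP2 just outside at 2.98 and 2.96. HAC1, whose intron is removed by Ire1 and tRNA ligase in place of the spliceosome and which was left out of both classes, had 3.82 for Lea1 and 0.52 for Prp11.

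Intronless genes held by both proteins were few, 35 of 5377, and their median scaled polymerase value was 2.76. RNA polymerase II itself held 15 of them (42.9%, against 3.97% of all genes) and Spt5 28 (80%, against 4.26%). Prp5 held 29 (82.9%, against 4.75%) and Prp40 31 (88.6%, against 6.14%). Among the remaining factors, Brr2 held 22 (62.9%, against 4.31%), BBP 16 (45.7%, against 2.89%) and Prp2 13 (37.1%, against 2.02%). Ribosomal protein genes were among the highest. RPL24A had a scaled 9.71 for Lea1 and 7.22 for Prp11, RPL24B 8.30 and 7.50 and RPS25B 8.30 and 6.75. For Prp40 these 3 genes lay between 11.1 and 11.5. An intron outside the annotated coding span would not show in the annotation used here. RPS25B has an intron-bearing copy, RPS25A, at 8.40 for Lea1 and 7.07 for Prp11. In all, Lea1 held 17 and Prp11 13 of 41 ribosomal protein genes without an intron.

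Glycolytic genes had scaled medians of 3.57 for Lea1 and 3.48 for Prp11 over 16 genes, 11 held by Lea1, 10 by Prp11 and 8 by both. TDH3, a glyceraldehyde-3-phosphate dehydrogenase gene, had 4.35 and 5.01, and the pyruvate kinase gene CDC19 4.48 and 4.35. Translation factors and chaperones had 1.37 for Lea1 and 2.40 for Prp11 over 15 genes. Histone genes, with the highest polymerase median of these lists at 4.81, had 1.51 and 1.56, and neither protein held any of the 8. Galactose genes, repressed in glucose, had -0.18 and 0.04.

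Some intronless genes held by both lie beside an intron. By gene order in the R64 assembly, 6 of 35 (17.1%) are next to or overlap an intron gene, counting the U3 snoRNA genes as such, against 8.07% of all intronless genes. YPL080C, between RPL21B and RPS9A, had 7.91 for Lea1 and 7.87 for Prp11. IRC13, next to RPL33B and the intron-bearing U3 snoRNA gene SNR17A, had 6.25 and 5.74, and DFR1 on the other side of SNR17A had 6.31 and 3.40. RPS22A lies between RPL39 and RPS14B and had log2 ratios of 0.95 for Lea1 and 0.61 for Prp11. Over all 434 intronless genes next to an intron gene, Lea1 held 5.30% and Prp11 2.53%, against 2.29% and 1.70% of those not next to one.

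Intronless genes held by a single protein made up a different kind of set. Lea1 alone held 67 (1.25%, against 1.44% of all genes) and Prp11 alone 34 (0.63%, against 0.639%). Their shares lie near or below those over all genes. Brr2, a helicase that unwinds U4 from U6, held 15 of the 67 (22.4%) and 8 of the 34 (23.5%), where it held 4.31% of all genes. Its share was higher still, 22 of 35 (62.9%), among the intronless genes held by both proteins. RNA polymerase II held 8 of the 67 (11.9%) and 3 of the 34 (8.82%), against 3.97% of all genes. Prp5 held 3 of the 67 (4.48%) and 4 of the 34 (11.8%), against 4.75%. Prp40 held 6 of the 67 (8.96%) and 2 of the 34 (5.88%), against 6.14%, and Lea1 at 37 °C held 3 (4.48%) and 1 (2.94%), against 2.18%. High values led both sets. LAA1 had log2 ratios of 3.27 for Lea1 and 0.06 for Prp11, ARG7 3.16 and 0.03, RTC4 3.16 and -0.38 and NUP85 2.94 and -0.15. On the side of Prp11, LCL1 had -1.12 for Lea1 and 1.31 for Prp11 and HFA1 0.19 and 1.27. YJR115W stood at a scaled 0.35 for Lea1 and 9.33 for Prp11. SPL2, the highest Prp11 value at a log2 ratio of 2.94, had 0.58 for Lea1, a scaled 2.56, and so fell outside the set.

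Position along the genome differed between these sets. Chromosomes II and III carried 17 of the 34 intronless genes held by Prp11 alone (50%), 11 on II and 6 on III, whereas they carry 9.43% of all intronless genes. The 6 on chromosome III include the mating-type genes MATALPHA1, MATALPHA2 and HMLALPHA2, with scaled Prp11 values of 3.56, 4.39 and 3.87. For Lea1 alone the share of II and III was 5 of 67 (7.46%). Whether these genes shared a place on the array or in amplification was not tested.

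**Figure D5:**
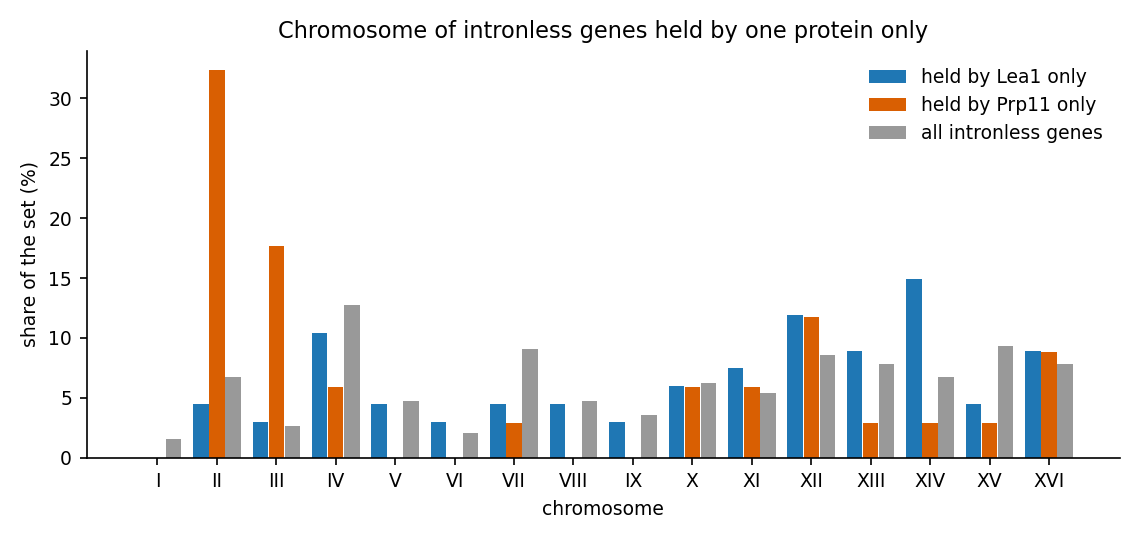
Share of each set of intronless genes by chromosome, for the 67 genes held by Lea1 alone (blue), the 34 held by Prp11 alone (orange) and all 5377 intronless genes (grey). Chromosomes II and III hold 50% of the orange set and 9.43% of all intronless genes.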

How the data were processed

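Per the labels, both DNA fractions passed through linker-mediated PCR and then took up cyanine dyes by Klenow labelling, with dyes reversed in at least 1 replicate. Per the series design text, arrays were scanned on a GenePix 4000B and replicates combined in Rosetta Resolver. The deposited values are log2 ratios. How arrays were normalised and which way the ratio runs is not stated, and single replicates were not analysed here.

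Probes were matched to locus tags of the RefSeq R64 gene table (5707 of 6284). Intron genes come from a list of 257 written from general knowledge and checked against that table, since a coding span that is not a multiple of 3 (145 of 231) cannot be one open frame. This list was revised from those spans after the deposited table was opened, and the pair, this list and all other lists were chosen with earlier results of these data known. A planned description of intron sequences was not run, as no exon annotation was used here. Scaling subtracts the intronless median and divides by the scaled median absolute deviation, and was tested on simulated data. Genes are named by rank within each column, by rank of the difference among held genes, by being held by 1 protein alone, by nearness to the threshold, or as list members, and some genes this rule covers are not reported here. The mating-type genes, IRC13, DFR1, HAC1 and the genes sharing a Lea1 value fall outside that rule, and they and the counts by neighbour, chromosome and repeated value were chosen after values were seen. Python 3.11.15, pandas 2.3.3, numpy 2.4.6, scipy 1.17.1 and matplotlib 3.10.9 were used. Arrays carry no depth, and their small number limits precision.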

Additional observations from a re-analysis of the deposited data

How the results depend on the processing

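Without replicates, an alternative was counted as different where a value moved by over 1.5 times. Over the main comparisons 66 recomputed values stayed within that range, 47 moved out of it and 5 changed sign. Part of this tally was fixed beforehand, so it does not measure robustness. Some alternatives set log2 ratios or values divided by a group median against robust SDs, and these can move by unit alone. Shares of non-ribosomal intron genes cannot change where only ribosomal protein genes are left out. No paired analysis was possible because each factor has 1 combined column, and for the same reason no replicate could be left out. Agreement over intron genes stayed between 0.56 and 0.83 under every alternative run. Held shares moved with the gene set, with the threshold and with an SD in place of the robust one. Without ribosomal protein genes they were 38.6% for Lea1, 12.9% for Prp11 and 10.7% for both, and without duplicated ribosomal protein intron genes 16.4% for Prp11 and 14.4% for both. With the SD, Prp11 held 23.8% of intron genes, and 23.4% were held by both. Of other intron genes, Lea1 then held 20% and Prp11 6.43%. For those genes Lea1 held 23.6% at a threshold of 4 and 20.7% above the 99th percentile of intronless genes, and Prp11 held 27.9% at a threshold of 2 and 7.78% over spans that are not a multiple of 3, an alternative added after the data were seen.

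Lea1 alone held 23 intron genes at 2 against under 1, 28 at 3 against under 2, 6 at 4 against under 1, 6 by percentiles (above the 99th, below the 90th) and 8 with the SD. Prp11 alone held 5 at a threshold of 2 and 1 with the SD. Of intronless genes Lea1 alone held 182 at a threshold of 2, 37 at 4, 34 by percentiles and 36 with the SD. Prp11 alone held 117, 15, 22 and 6 in the same order, and 52 after quantile normalisation.

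The median difference Lea1 minus Prp11 over intron genes was 0.57 for log2 ratios, 0.047 after quantile normalisation and 0.071 after division by the ribosomal protein median. For ribosomal protein intron genes it was -0.14 and -0.0043 under the last 2, and for other intron genes 0.36, 0.17 and 0.14 under the 3. For snoRNA hosts the main value of -0.18 became 0.71 for log2 ratios, -0.30 after quantile normalisation, -0.41 scaled on all genes and -0.0042 as a mean. Glycolytic genes, at -0.014, had 0.26, -0.25, -0.12 and 0.033 under these, and -0.093 after division. Single genes turned with log2 ratios as deposited: ACT1 at 0.13, ASC1 at 0.14, RPL30 at 0.44 and RPS24A at 0.19. The cause was not tested beyond the change of unit and spread that each scaling makes by construction.

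As deposited log2 ratios, the medians of the sets held by both, by Lea1 and not Prp11, and by Lea1 alone were 0.74, 0.10 and 0.15 for Lea1 at 37 °C, and 2.13, 0.98 and 0.80 for Prp40.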

Other observations

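Genes that code for U2 snRNP proteins were themselves mostly unmarked. Over 18 of them the scaled medians were 0.03 for Lea1 and 0.29 for Prp11. The tagged loci stood at -0.12 for LEA1 in the Lea1 column and at 0.53 for PRP11 in the Prp11 column. MSL1, coding for the partner of Lea1 in the U2 core, had 0.93 for Lea1 and -2.93 for Prp11. Lea1 held 1 of the 18, the Sm protein gene SMD3, at 3.73, where Prp11 had -2.75, and Prp11 held none.

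Values recur throughout the Lea1 column, with its 279 levels. One of them, a log2 ratio of 2.2141 or a ratio of 4.64, belongs to 9 genes, all intronless. The log2 limit of the scale divided by 3 is 2.2146, which is the same ratio once rounded to whole hundredths, and the column pools 3 replicates. Where this recurring value comes from was not tested. The genes are VLD1, PRY3, ENT3, RIT1, MET2, PUS4, DAP1, CLN2 and NHP6A, with a scaled Lea1 value of 9.02 each. Prp11 held RIT1 of these, at 4.24. Of the 67 intronless genes held by Lea1 alone, 6 carry this value, and 61 remain without it.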
